A study of Camelus dromedarius with 4 samples.

Results

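Ion pumps and ion exchangers were examined in RNA-seq of the supraoptic nucleus of the dromedary camel, the hypothalamic nucleus whose magnocellular neurones make vasopressin and oxytocin. Members were all symbols of the deposited table of season means that begin with ATP1A, ATP1B, ATP2A, ATP2B, ATP2C, ATP6V, SLC4A, SLC8A or SLC9A and have a mean in both seasons, which gave 63 of 16053 symbols. The adaptor proteins SLC9A3R1, SLC9A3R2 and SLC4A1AP match by name only and are not transporters. They are counted among the members but left out of the counts of single families. The study compared 2 winter libraries (replicates 2 and 3) with 2 summer libraries (replicates 1 and 2), all from healthy, hydrated, age-matched adult male Camelus dromedarius of the Tergui breed, untreated apart from season. The winter animals were slaughtered in January at El Oued and the summer animals in June at Ouargla, so season, place and date cannot be told apart. The study describes its RNA-seq groups as camels, as many as there are libraries, but the labels do not tie a library to an animal, and p-values measure the spread between these libraries. The dissected nucleus holds neurones, glia and vessels, and in such bulk tissue fewer cells of a type and less RNA per cell cannot be told apart.

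Every neurone pays for its electrical activity with ion pumps. The Na,K-ATPase, built from a catalytic alpha and a glycosylated beta subunit, extrudes sodium in exchange for potassium and sets the gradients that exchangers then spend. Calcium that enters during firing is pumped into the endoplasmic reticulum by SERCA (ATP2A), out of the cell by PMCA (ATP2B) and into the Golgi by SPCA (ATP2C), and leaves also through the Na/Ca exchangers (SLC8A). The V-ATPase, with a peripheral sector (ATP6V1) that splits ATP and a membrane sector (ATP6V0) that carries protons, acidifies lysosomes, synaptic vesicles and the dense-core granules in which hormone precursors are processed. Bicarbonate transporters (SLC4A) and Na/H exchangers (SLC9A) set the pH of cells and organelles.

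The values that all members have are the authors' season means, each the mean over the 2 libraries of a season of reads divided by a DESeq size factor (a scaling for library depth). They carry no error. Each mean is a sum of whole reads, so the reads of each library could be solved for. A single solution was found for 25 members, of which 17 had a season mean of 10 or more and were tested. A further 34 members had up to 10 solutions in each season and 4 had more, ATP2C1, ATP6V0A1 and SLC9A9 among them. The libraries of a season are told apart here by size factor, and are called the larger winter library (size factor 1.33), the smaller winter library (0.946), the larger summer library (0.922) and the smaller summer library (0.877). All library values below are reads divided by size factor, called normalised reads, unless reads are named, and a pair gives the larger library first. These values depend on transcript length, and no lengths were used, so levels are compared between libraries and never between genes.

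Depth and identity of the libraries were checked first. Reads counted on gene models ranged from 4379162 to 6902037 per library. Of 9 magnocellular markers 8 had means, OXT at 592 in summer and 621 in winter, and AVP was not analysed here. Past 1.5-fold, 2 of the 8 were higher in winter (background 10.1%), SCG2 (1195 against 554) and CHGB (379 against 234). In summer 2 were higher past this fold (background 12.1%), PDYN (127 against 35.9) and PCSK1 (69.1 against 32.9). Of 10 neuronal markers 9 had means and none was at 0, and 7 of the 9 were higher in winter, 3 of them by more than 1.5-fold. Their summed mean was 11240 in summer and 11607 in winter, of which MAP2 alone held 6540 and 6438. The median log2 ratio of winter over summer of the 9 was 0.53. SNAP25, a presynaptic fusion protein, had 352 and 122 normalised reads in the larger and smaller winter library and 79.2 and 199 in the larger and smaller summer library. RBFOX3, a nuclear marker of neurones, gave 53.6 and 37.0 against 15.2 and 33.1. Of 5 magnocellular markers with a single solution, 4 were lowest in the smaller winter library, PDYN (8.46, against 63.4 to 128 in the other 3 libraries), PCSK1, SIM1 and OTP. The other, POU3F2, had 44.5 and 44.4 in winter against 30.4 and 60.4 in summer. Neuronal markers with a single solution thus differed within a season as well as between seasons, and the part of neuronal content in the results below was not tested.

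Few members differed between the seasons. Of the 63 members, 55 had a season mean of 10 or more, and 28 of them were higher in winter, where 46.2% of all symbols were. More than 1.5-fold, 5 members were higher in winter (background 10.1% of 13811 symbols) and 5 in summer (background 12.1%). The 5 higher in winter were ATP1B2, ATP2A1, ATP2B2, ATP2B3 and ATP6V0C, and the 5 higher in summer were ATP1A4, ATP1B4, ATP2C2, ATP6V1G1 and ATP6V1G3. More than 2-fold, ATP2B2 alone was higher in winter (background 2.7%) and ATP1B4, ATP2C2 and ATP6V1G3 in summer (background 4.53%). The shares were near the background in each case. The median log2 ratio of winter over summer was 0.05 over the 55 members and -0.04 over all symbols. Without the adaptors SLC9A3R1 and SLC9A3R2 the median of the members was -0.0026, and without SLC4A1AP as well it was 0.025.

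**Figure D1:**
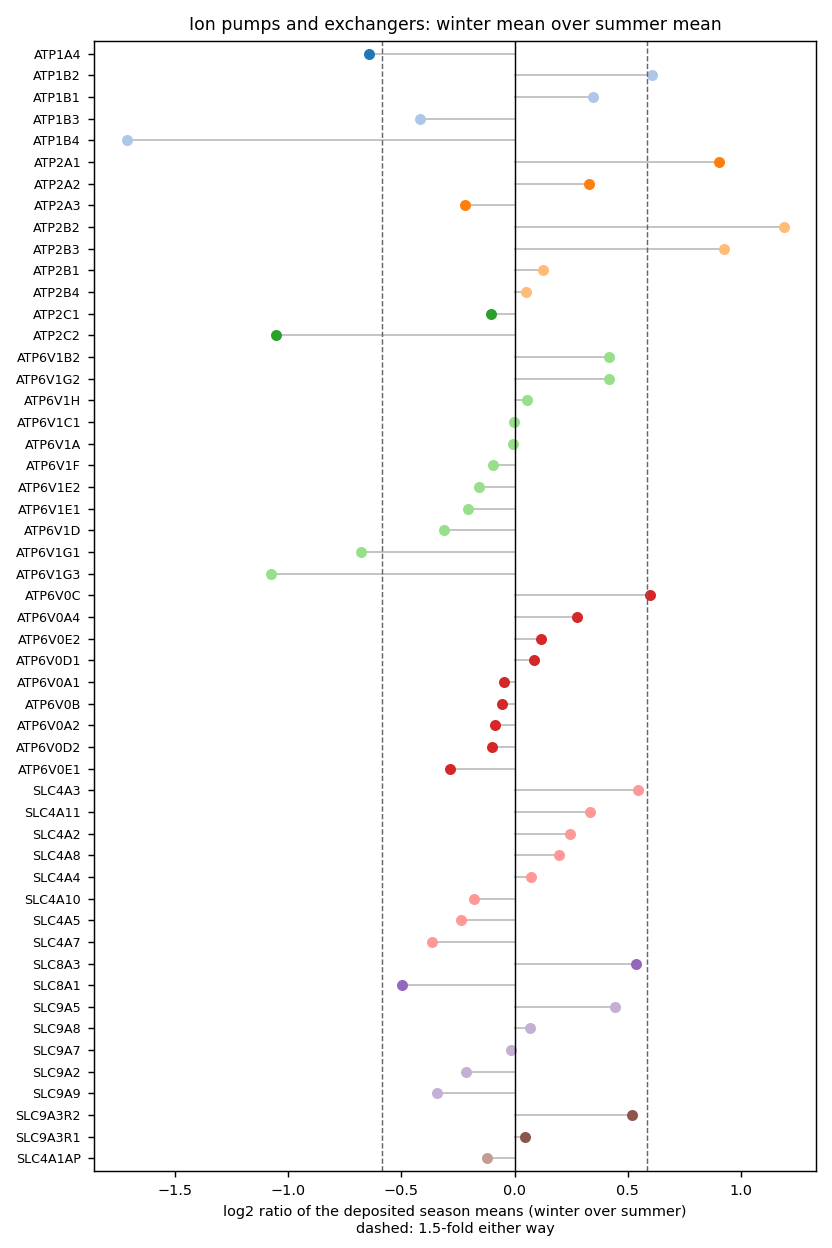
The log2 ratio of the authors' winter mean to their summer mean (horizontal axis) is drawn for 52 of the 55 members with a season mean of 10 or more, 1 row a member, ordered and coloured by family, with dashed lines at 1.5-fold either way. The points reach from -1.72 (ATP1B4) to 1.19 (ATP2B2), all 4 ATP2B members lie right of 0, and no SLC4A, SLC8A or SLC9A member lies past a dashed line.

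In whole reads, 1 of the 17 tested members passed the thresholds of the study (unadjusted p under 0.05 and more than 2-fold), against 1.67% of the 7669 symbols tested with edgeR's quasi-likelihood test. It was ATP2C2, which was also the only member past an unadjusted p of 0.05 at any fold (background 1.98%). No member passed a Benjamini-Hochberg adjusted p of 0.05 in edgeR's quasi-likelihood test, where 0% of all symbols did, and 152 symbols had an unadjusted p under 0.05. By edgeR's exact test and by DESeq2, 1 symbol passed the adjusted threshold, and it was no member. Winter lay above summer in every library of 2 members (SLC4A11 and SLC9A5, background 13.3%), and summer above winter in every library of 3 (ATP1B4, ATP2A3 and ATP2C2, background 17.2%). An exact permutation test of 2 libraries against 2 cannot give a two-sided p below 0.333.

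**Figure D2:**
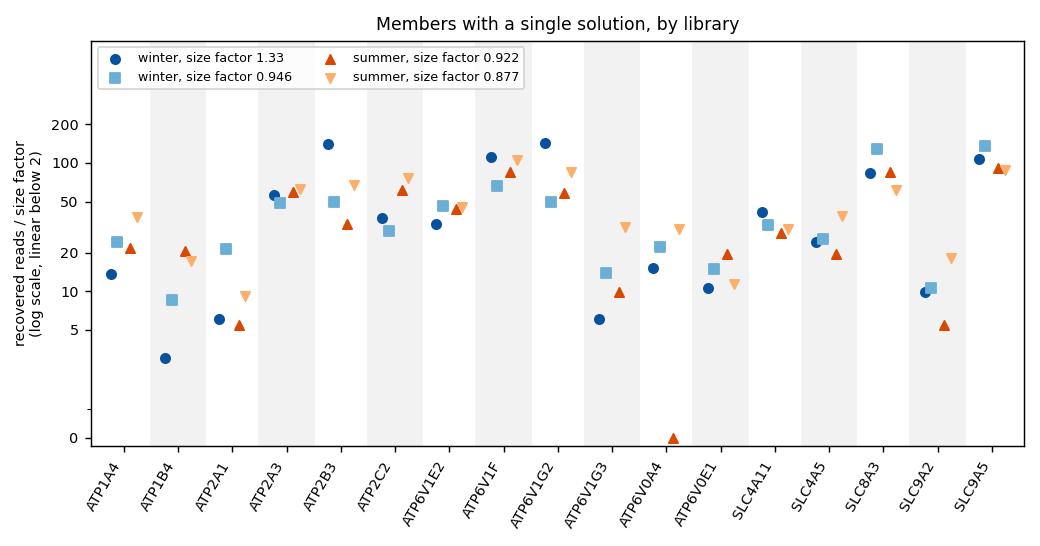
Reads divided by size factor (vertical axis, log scale, linear below 2) are drawn for the 17 tested members in each of the 4 libraries, circles and squares for winter, triangles for summer. In ATP2C2, ATP1B4 and ATP2A3 both summer points lie above both winter points, in SLC4A11 and SLC9A5 both winter points lie above, and the larger summer library of ATP6V0A4 is at 0.

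Of the catalytic subunits of the Na,K-ATPase, ATP1A4, known as the form of sperm, had the higher mean in summer (29.7, against 19.0 in winter). Winter gave 18 and 23 reads, summer 20 and 33, or 13.6 and 24.3 against 21.7 and 37.6 normalised reads. The seasons overlapped, with a log2 difference of -0.67 (SE 0.67, adjusted p = 0.983 by edgeR's quasi-likelihood test).

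The beta subunits, which carry the alpha subunit to the membrane, were split, with 2 of 4 higher in each season. ATP1B2, a beta subunit of glia first described as an adhesion molecule, had means of 529 in winter and 347 in summer, a log2 ratio of 0.61. Its summer libraries held 266 and 429, and its 3 winter solutions gave 484 and 574, 623 and 435, or 763 and 295. Winter lay wholly above summer in 2 of these 3 solutions. Its unadjusted p was 0.292 to 0.398 over them in edgeR's quasi-likelihood test.

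ATP1B4 had the largest season ratio among the 55 members. In placental mammals its product is known as a nuclear membrane protein of muscle that no longer serves the pump. Winter gave only 4 and 8 reads and summer 19 and 15, or 3.02 and 8.46 against 20.6 and 17.1 normalised reads. Both summer libraries were higher than both winter libraries. The log2 difference was -1.79 (SE 0.87), with an unadjusted p of 0.0763 and an adjusted p of 0.983 by edgeR's quasi-likelihood test. With 1 library left out the log2 difference ran from -2.60 (without the smaller winter library) to -1.15 (without the larger winter library). ATP1B1, the widely used beta subunit, had means of 952 in winter and 748 in summer. Its 15 combinations of solutions all had overlapping seasons. For ATP1B3, with means of 159 and 213, the summer libraries (239 and 187) lay above winter in the solution of 155 and 164 and not in that of 294 and 24.3.

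SERCA genes showed no member past the test. ATP2A2, the housekeeping pump of the endoplasmic reticulum, had means of 898 in winter and 715 in summer, and both winter libraries lay above summer in 2 of its 12 combinations. ATP2A1, the pump of fast muscle, was read 8 and 20 times in the larger and smaller winter library, and 5 and 8 times in summer. The 20 reads of the smaller winter library made its season ratio (means of 13.6 and 7.27). Without that library the log2 difference went from 0.81 to -0.26. For ATP2A3, the winter values were 56.6 and 48.6 normalised reads, and the summer values 59.6 and 62.7. Its libraries did not overlap between seasons, yet the log2 difference was only -0.21 (SE 0.40, adjusted p = 0.983 by edgeR's quasi-likelihood test).

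All 4 PMCA genes had the higher mean in winter (background 46.2%), with a median log2 ratio of 0.53. ATP2B2 and ATP2B3 are found mainly in excitable cells, while ATP2B1 and ATP2B4 are widespread. ATP2B2 had means of 188 in winter and 82.5 in summer, a log2 ratio of 1.19. Its summer libraries differed more from each other than the season means did, with 27 reads in the larger and 119 in the smaller, or 29.3 and 136 normalised reads. The winter solutions were 0.755 and 375, 140.4 and 236, or 280.0 and 96.2 normalised reads. Winter lay above summer in 1 of these 3, and the fit gave a log2 difference of 1.18 to 1.20 with unadjusted p-values from 0.109 to 0.467 by edgeR's quasi-likelihood test.

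ATP2B3 rested on 1 library. It had 188 reads in the larger winter library, 47 in the smaller winter library, 31 in the larger summer library and 59 in the smaller summer library. In normalised reads these were 142, 49.7, 33.6 and 67.2, so the smaller winter library lay between the summer libraries. The log2 difference was 0.95 (SE 0.58, unadjusted p = 0.144, adjusted p = 0.983 by edgeR's quasi-likelihood test). It became -0.02 without the larger winter library and 0.52 without the larger summer library. Without the smaller winter and the smaller summer library it was 1.49 and 1.52.

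The larger winter library was the highest and the larger summer library the lowest in ATP2B3 and in both neuronal markers with a single solution. Between them, the smaller summer library stood above the smaller winter library in ATP2B3 and SNAP25 and below it in RBFOX3. ATP6V1G2, the brain form of the V-ATPase stalk subunit G, had 143, 49.7, 58.6 and 85.5 normalised reads in the larger winter, smaller winter, larger summer and smaller summer library, and so shared the first place of the larger winter library but had its lowest value in the smaller winter library. Its log2 difference was 0.44 (SE 0.53, adjusted p = 0.983 by edgeR's quasi-likelihood test) and became -0.53 without the larger winter library. The order of ATP2B3 and SNAP25 was not found in neuronal markers only. ALDH1L1, an astrocyte marker, had it too, with 212, 76.1, 70.5 and 168 normalised reads in the larger winter, smaller winter, larger summer and smaller summer library. The astrocyte markers SLC1A3 and AQP4 were instead highest in the smaller summer library. By season means, 4 of 9 astrocyte markers were more than 1.5-fold higher in summer (background 12.1%) and 0 in winter (background 10.1%). GFAP had 25074 in summer and 14423 in winter. At any fold 5 of the 9 were higher in summer and 4 in winter. The part of neuronal or other cell content in these values was not tested.

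**Figure D3:**
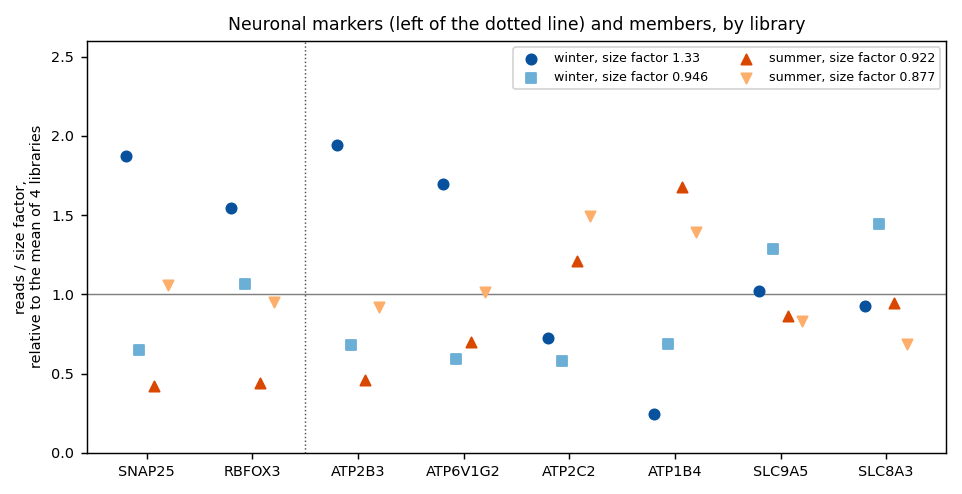
Reads divided by size factor are drawn relative to the mean of the 4 libraries (vertical axis, 1 for the mean) for the neuronal markers SNAP25 and RBFOX3 and for 6 members. The larger winter library is the highest point in SNAP25, RBFOX3, ATP2B3 and ATP6V1G2, whereas in ATP2C2 and ATP1B4 both summer points are highest and in SLC9A5 both winter points are.

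The widespread PMCA genes were nearly level between the seasons. ATP2B1 had means of 542 in winter and 496 in summer, and its summer libraries lay close together at 509.7 and 482. ATP2B4 had means of 360.0 and 347, but its summer libraries held 220.1 and 474.

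SPCA pumps load the Golgi with calcium and manganese, and both had the higher mean in summer, as did 7430 of 13811 symbols. ATP2C2, known from secretory epithelia, had 49 and 28 reads in the larger and smaller winter library and 57 and 67 in the larger and smaller summer library. Normalised, winter gave 37.0 and 29.6 and summer 61.8 and 76.4, so each summer library was above each winter library. The log2 difference was -1.04 (SE 0.43), with an unadjusted p of 0.0455 and an adjusted p of 0.983 by edgeR's quasi-likelihood test. The unadjusted p was 0.0511 with RLE scaling, 0.0648 with total reads as scaling and 0.106 with DESeq2's Wald test. It was 0.142 without the larger winter library, 0.231 without the smaller winter library, 0.108 without the smaller summer library and 0.0247 without the larger summer library. ATP2C1, the housekeeping Golgi pump, had means of 1056 in winter and 1135 in summer and could not be resolved into libraries.

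The V-ATPase showed no common direction beyond small differences. Of 20 subunit genes with a mean of at least 10, 13 had the higher mean in summer and 7 in winter (background 46.2% in winter). But 8 of the 20 had log2 ratios within 0.1 of 0, including 6 of the 13. Scaling by total reads moved the median log2 difference of all tested symbols from -0.11 to -0.02, a shift about the size of these ratios. The median log2 ratio of the 20 was -0.05. ATP6V1A, the catalytic subunit, had means of 719.8 in winter and 722 in summer. ATP6V1C1, a stalk subunit, had 271 in winter and 272 in summer.

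Members past 1.5-fold in the V-ATPase were 3. ATP6V0C, the proteolipid that forms the proton-carrying ring, had means of 481 in winter and 317 in summer. Its summer libraries held 266 and 369, and winter held 631 and 331 or 770.4 and 191, so that the larger winter library was highest and the seasons overlapped in both solutions. ATP6V1G1, the general form of stalk subunit G, had means of 452 in winter and 723 in summer. Both summer libraries lay above winter in 2 of its 9 combinations, and the unadjusted p ran from 0.243 to 0.622 in edgeR's quasi-likelihood test. ATP6V1G3, the kidney form of subunit G, was covered by 8 and 13 winter reads and by 9 and 28 summer reads. The 28 reads of the smaller summer library set its ratio, and the log2 difference of -1.12 (SE 0.90) became -0.03 without that library. The 3 genes of subunit G thus had log2 ratios of -0.68, 0.42 and -1.07 for G1, G2 and G3, and none of these passed the test.

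Among other subunits of the membrane sector, ATP6V0A1, the form of subunit a in neurones, had means of 2097 in winter and 2166 in summer. ATP6V0A4, the form of kidney and inner ear, had 20 and 21 winter reads, with 0 in the larger summer library and 27 in the smaller. Its season means (18.7 and 15.4) hide this difference between the summer libraries. ATP6V0E1 had 14 winter reads in each library, with 18 and 10 summer reads. ATP6V1E2 was among the most even of the tested members, with 44 reads in each winter and 40 in each summer library. For ATP6V1F the winter values were 112 and 66.6 normalised reads and the summer values 84.6 and 106. Its log2 difference of -0.08 turned to 0.01 with total reads as scaling.

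By their season means, 0 of the 15 SLC4A, SLC8A and SLC9A transporters were past 1.5-fold (background 10.1% higher in winter and 12.1% higher in summer). Their log2 ratios ran from -0.50 (SLC8A1) to 0.55 (SLC4A3). Whether they differed from the pumps in this was not tested.

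Of the SLC4A family 5 of 8 had the higher mean in winter (background 46.2%). SLC4A4, the sodium bicarbonate cotransporter of astrocytes, had means of 663 in winter and 631 in summer. SLC4A3, a chloride bicarbonate exchanger of excitable cells, had 271 and 186. Its summer libraries held 118 and 253 and its winter libraries 357 and 185 or 497 and 45.5, with overlap in both solutions. SLC4A7 had means of 206 in winter and 265 in summer, with 311 and 219 in the summer libraries. SLC4A11 was read 55 and 31 times in winter against 26 and 27 times in summer, or 41.5 and 32.8 against 28.2 and 30.8 normalised reads. Both winter libraries were above both summer libraries, but the smaller winter library only just, and the log2 difference was 0.34 (SE 0.53, adjusted p = 0.983 by edgeR's quasi-likelihood test).

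Of the Na/Ca exchangers, SLC8A1 had means of 571 in winter and 807 in summer. Summer lay above winter in 2 of its 6 combinations, with unadjusted p-values of 0.448 to 0.593 in edgeR's quasi-likelihood test. SLC8A3 went the other way, at 83.0 and 129 normalised reads in the winter pair against 84.6 and 61.6 in the summer pair. The larger summer library lay just above the larger winter library, and the log2 difference was 0.53 (SE 0.39, adjusted p = 0.983 by edgeR's quasi-likelihood test).

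Of the Na/H exchangers, SLC9A5, a form found mainly in brain, was read 143 and 128 times in winter against 84 and 77 times in summer. These are 108 and 135 against 91.1 and 87.8 normalised reads. The winter libraries were the higher ones and the summer libraries differed by 1.04-fold. The log2 difference was 0.44 (SE 0.34, unadjusted p = 0.233, adjusted p = 0.983 by edgeR's quasi-likelihood test), and it stayed between 0.27 and 0.60 with any 1 library left out. SLC9A9, an exchanger of endosomes, had means of 1298 in winter and 1644 in summer and could not be resolved. SLC9A7 and SLC9A8, exchangers of the Golgi, were within 0.07 of 0 in log2 ratio, with winter means of 167 and 639 and summer means of 169 and 609.9. The adaptors that bind SLC9A3 had log2 ratios of 0.05 (SLC9A3R1) and 0.52 (SLC9A3R2), and SLC4A1AP had -0.12.

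**Figure D4:**
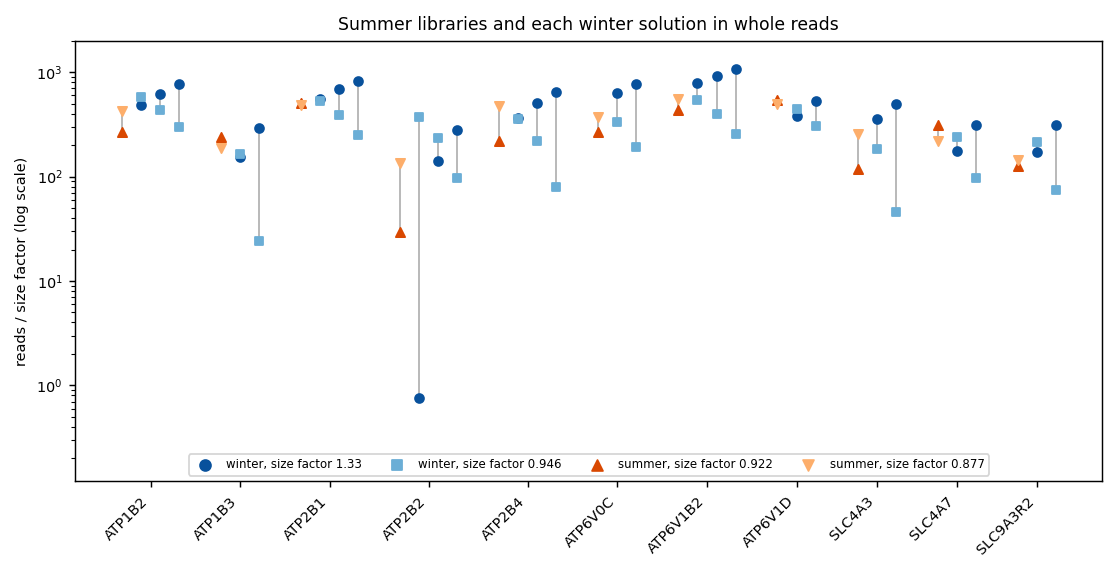
For 11 members with a single summer solution, the summer libraries (triangles) and each winter solution (circle and square joined by a line) are drawn as reads divided by size factor on a log axis. The winter solutions of ATP2B2 reach from 0.755 to 375, and those of ATP2B1 stay between 253 and 831, so the season means leave the winter libraries more open in the first than in the second.

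The 34 members with several solutions were also fitted at each of them. In none of these fits did a member pass an unadjusted p of 0.05 in edgeR's quasi-likelihood test, and the lowest p was the 0.109 of ATP2B2. The next counts cover the 51 members with a season mean of 10 or more and up to 10 solutions in each season. The seasons overlapped in every solution in 36, were apart in every solution in 5 and depended on the solution in 10. All 5 are among the 17 members with a single solution (background 30.5% of symbols with a single solution), and no such share was computed over symbols with several solutions.

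The spread within summer was set beside the seasonal difference. Over 43 members with a season mean of 10 or more and a single summer solution, the summer libraries were more than 1.5-fold apart in 19 (background 43.9% of 12199 symbols), and the season means in 9 (background 24.1%). The smaller summer library was the higher one by this fold in 15 of the 43 (background 28.6%) and the larger in 4 of the 43 (background 15.3%). The median absolute log2 difference was 0.48 between the summer libraries and 0.28 between the season means, and the first was the larger one in 26 of the 43 members and in 8178 of the 12199 symbols. A mean of 2 libraries varies less than 1 library does, so these are set side by side as sizes only. Over 17 members with a single winter solution, the winter libraries were more than 1.5-fold apart in 8 (background 39.1%), and the season means in 6 (background 32.2%). By this fold, 5 of the 17 were higher in the smaller (background 16.3%) and 3 of the 17 in the larger winter library (background 22.8%).

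Among the 15 members higher in the smaller summer library were ATP1B2 (429 against 266), ATP2B2, ATP2B3, ATP2B4, ATP6V0B (263 against 129) and ATP6V0E2 (460.5 against 259). So were SLC4A3 and SLC4A10, a sodium bicarbonate transporter of neurones (256 against 113). The 4 members higher in the larger summer library were ATP6V0D2 (298 against 149), ATP6V0E1, SLC4A8 (466 against 226) and SLC9A8 (776 against 443). The neuronal markers SNAP25 and RBFOX3 summed to 94.3 in the larger and 233 in the smaller summer library, and 3 astrocyte markers with single solutions to 137 and 296. For 4 endothelial markers the sums were 229 and 451, for 5 magnocellular markers 331 and 344, and for 3 microglial markers 281 and 184. Single markers went both ways within these sums. Among endothelial markers SLCO1C1 had 55.3 and 248 but PECAM1 91.1 and 80.9. The microglial TMEM119 had 56.4 and 61.6, against the direction of its sum. Among magnocellular markers PCSK1 had 82.4 and 55.9 and POU3F2 30.4 and 60.4. The part of cell content in these differences was not tested.

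**Figure D5:**
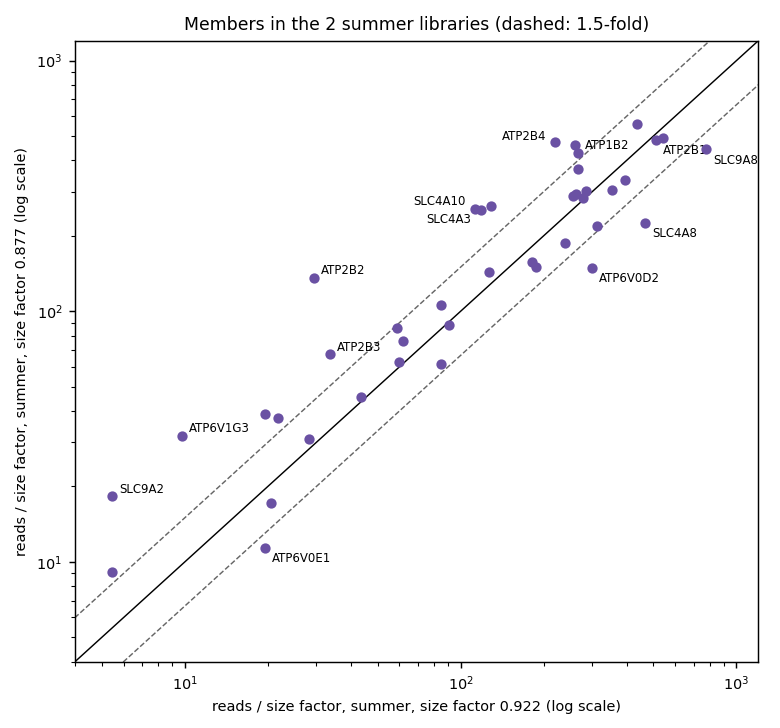
Normalised reads in the larger summer library (horizontal axis) and the smaller summer library (vertical axis), both on log axes, are drawn for 41 members with a single summer solution and no library at 0, with the line of equality and dashed lines at 1.5-fold. ATP2B2 (29.3 and 136) lies far above the upper dashed line, and ATP6V0D2, SLC4A8 and SLC9A8 lie below the lower one.

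The 8 members under a mean of 10 in both seasons included ATP6V1B1, ATP6V1C2, SLC4A1, SLC4A9, SLC8A2, SLC9A3 and SLC9A4. SLC9A3, the exchanger of kidney and gut brush borders, gave 15 and 4 winter reads against 0 and 1 summer reads. ATP6V1B1, the kidney form of the V-ATPase B subunit, gave 9 and 6 winter reads against 2 and 13 summer reads. SLC4A1, the anion exchanger of red blood cells, gave 2 and 4 against 0 and 2. Both winter libraries of SLC9A3 were above both summer libraries, with an unadjusted p of 0.0508 and an adjusted p of 0.983 by edgeR's quasi-likelihood test without the filter on low means. In that fit 0 of the 8 had an unadjusted p under 0.05.

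Partners of the pumps and exchangers were counted in the same way from a list of 54 regulators and related transporters, of which 44 had means and 38 a mean of at least 10. In winter 18 of the 38 were higher (background 46.2%) and in summer 20, and past 1.5-fold they were 0 in winter (background 10.1%) and 1 in summer (background 12.1%). The 1 was SLC9C2, a relative of the Na/H exchangers, with means of 79.0 in winter and 160.5 in summer and a log2 difference of -1.03 (unadjusted p = 0.0672 by edgeR's quasi-likelihood test). ATP6AP1, an accessory subunit of the V-ATPase, had means of 297 in winter and 200.2 in summer, and FXYD7, a brain regulator of the Na,K-ATPase, 242 and 171. TFE3, a transcription factor of lysosomal genes, had 111 and 74.2, and MCU, the mitochondrial calcium uniporter, had 78.2 and 117. Of 19 partners with single solutions and enough reads, 0 had an unadjusted p under 0.05 by edgeR's quasi-likelihood test (background 1.98%).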

How the data were processed

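RNA of the supraoptic nucleus was sequenced from stranded, rRNA-depleted total RNA libraries, grouped by season from the labels. The authors used TopHat for alignment to a dromedary assembly they had made, and the deposited counts are raw HTSeq read counts for 64989 gene models (20.7% to 27.8% of tallied alignments, the other 5 tallies left out). The count files pair no model with a gene name and served for depth only. In their table the authors gave a signal per symbol, the mean over a season of counts divided by DESeq size factors. Its fold change and p-value columns hold the authors' own comparison and were not used.

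Members, lists and tests were chosen with earlier results of these data known. Each season mean was solved for whole reads in 2 libraries. Of means up to 20, 100% were whole in either season, against 0.0536% (summer) and 0.278% (winter) after a random move, and of 16049 symbols 9910 had a single solution. Means from 100.2 in winter and 369 in summer can have several solutions, so tested genes are those of low means. The recovery and the main fit were tested on simulated data. All 1902 single solutions found among 3000 genes were right. The simulated means were built from whole reads, with the value of 1 read in each library supplied. A single solution was then nearly bound to be right, so this check covers the arithmetic only. For the fit, 200 of 7669 symbols were made to differ 4-fold between the seasons. Of these 200 symbols, 72.5% passed the thresholds of the study and 14 passed the adjusted threshold. Of the symbols left as they were, 379 also passed the thresholds of the study. In the data themselves 128 of 7669 symbols passed them in all. Every simulated symbol was given the same spread, which the data need not have, so the simulated shares do not carry over to the data. Recovered reads of symbols with a season mean of 10 or more were fitted with edgeR 4.0.16 in R 4.3.3 (size factors of the read steps as scaling, glmQLFit with legacy set to FALSE, glmQLFTest, Benjamini-Hochberg over 7669 symbols). The common biological coefficient of variation was 0.459. Each SE given is the absolute log2 difference divided by the square root of the test's F statistic, and not a separately fitted error. Alternatives were TMM, RLE and total-read scaling, other filters and thresholds, edgeR's exact test, DESeq2 1.42.0, the legacy fit and leaving out each library. Named genes were, in each family, the member with the highest mean and the 2 with the largest ratios, members with an unadjusted p under 0.05, and members whose seasons did not overlap. Others, chosen after their values were seen, are named as examples. Reads that close paralogs such as the alpha subunits share were not measured. Figures were drawn with matplotlib 3.10.9. The values of some members are not reported here.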

Additional observations from a re-analysis of the deposited data

How the results depend on the processing

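The count of members past the thresholds of the study, and past an unadjusted p of 0.05, was 1 (ATP2C2) and became 0 with RLE scaling, total reads, edgeR's exact test and DESeq2. With 1 library left out either count ran from 0 to 3 and the count past an adjusted p of 0.05 from 0 to 1 (ATP6V0A4, against a library of 0 reads). Members with means past 1.5-fold were 10, and 4 past 2-fold. With 1 library left out they were 6 to 18. With a winter library left out they were 6 of 17 members, as with all libraries, and with a summer library left out 10 and 18 of 43, against 9 with all, the 18 without the smaller summer library. The median log2 ratio then ran from -0.27 to 0.13, from -0.16 with all libraries over the 17 and 0.05 over the 43. The log2 difference of ATP6V1F became 0.011 with total reads. With 1 library left out the log2 differences ran from -0.26 to 1.53 in ATP2A1, -0.018 to 1.519 in ATP2B3, -0.73 to 7.30 in ATP6V0A4 (the 7.30 is against a library at 0 and no bound), -0.64 to 0.14 in ATP6V0E1, -0.42 to 0.065 in ATP6V1E2, -0.52 to 0.23 in ATP6V1F, -0.53 to 0.99 in ATP6V1G2, -0.65 to 0.34 in SLC4A5 and -0.84 to 0.89 in SLC9A2. Leaving out a library leaves a season with 1, which is assumed to vary like the other season, and the common coefficient of variation was then 0.583 from the summer libraries and 0.288 to 0.289 from the winter ones, which moves the counts of calls over all symbols from 128 to between 35 and 1172. The cause of the other changes was not tested. TMM scaling, the other filters, the legacy fit, the low-mean subset, a pseudocount of 1, centring and dropping the adaptors kept the counts of members past each threshold, both directions together, within 1.5 times of those given. By direction, members past 1.5-fold went from 5 to 8 higher in winter with no filter and from 5 to 3 higher in summer with a mean of 10 in both seasons. Over all symbols, those past the thresholds of the study went from 128 to 80 with that filter and to 60 with DESeq2, and with total reads 139 of 188 symbols past an unadjusted p of 0.05 were higher in winter, against 80 of 152. The median became -0.0026 without SLC9A3R1 and SLC9A3R2 and stayed between 0.025 and 0.083 under the others of these that touch it. The library left out of the means, the fits at each of several solutions and the set without SLC4A1AP were chosen after seeing the data. No paired analysis was possible because the animals of the seasons were slaughtered at different dates and places, so none was in both. With 2 libraries a season, depth and spread limit every difference.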
